A study of Mus musculus with 2 samples.

Results

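Eph receptors and ephrins are the cell surface receptors and ligands through which growing axons and migrating cells repel or hold each other on contact. The 10 family genes described here have known parts in the wiring of the spinal cord. They are the A-class receptors Epha3, Epha4, Epha5 and Epha7, the B-class receptors Ephb1, Ephb2 and Ephb3, the A-class ephrin Efna5 and the B-class ephrins Efnb2 and Efnb3. The genes were chosen by symbol, and all 10 matched a gene ID among the 43346 gene rows of each library. Both libraries were made from total RNA of newborn (day 0) mice of the B6NCrl strain, and each came from the neural tube of a different animal, pup 2 and pup 1 of 1 litter. Sex was not collected, and the labels name no treatment, transgene or mutation. RNA longer than 200 bases was kept, 10 ng of it went into a library, and synthetic spike-in RNA was added. The data are therefore 1 group of 2 samples with no condition to contrast, no test was run, and a difference between the pups is a difference between 2 libraries.

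An Eph receptor spans the membrane, binds an ephrin on a neighbouring cell and signals through a tyrosine kinase domain inside its own cell. A-class ephrins are held to the membrane by a glycolipid anchor and mostly bind A-class receptors, whereas B-class ephrins span the membrane, mostly bind B-class receptors and can signal back into the cell that carries them. In the developing cord these contacts steer motor axons into the limb and help to place synapses. They also keep corticospinal and some local axons from crossing the midline.

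Expected counts over all genes came to 40003518 for pup 2 and 26916916 for pup 1, so pup 2 was sequenced 1.49 times as deeply. The labelled neural tube held markers of spinal cord and few of those listed for the forebrain. All 6 pan-neuronal markers were detected, with a summed TPM of 2725 in pup 2 and 2951 in pup 1 (Stmn2 the highest, Elavl3 the lowest), as were 8 of 9 Hox genes that mark positions along the cord (Hoxb6 the highest, Hoxd13 the lowest). Of 6 forebrain markers 1 was detected, Neurod6 (TPM 28.9 in pup 2, 33.15 in pup 1), and Otx1 and Nkx2-1 were at 0 in both pups. RNA of some markers for cells other than cord neurons also differed between the pups. The summed TPM of 6 meningeal and fibroblast markers was 2722 in pup 2 and 1347 in pup 1. Most of that gap lay in Ptgds (2190 in pup 2, 922 in pup 1). All 6 were nevertheless higher in pup 2 with deposited TPM intervals apart, against 7.72% of all genes that averaged 100 counts or more. The sum of 6 oligodendrocyte lineage markers was 699 in pup 2 and 439 in pup 1. That of 6 sensory ganglion markers was 55.2 in pup 2 and 32.4 in pup 1, with 4 of them at least 2-fold higher in pup 2. Pou4f1 (29.2 in pup 2, 29.1 in pup 1) made up most of the ganglion sum and hardly differed. Of the 9 Hox genes, 2 were at least 2-fold higher and 1 at least 2-fold lower in pup 2. Over all genes that averaged 100 counts or more, 0.472% were 2-fold apart in either direction. For the 8 marker lists not described further, the summed TPM of pup 2 was 0.735 (cartilage and bone) to 1.05 (microglia) times that of pup 1. In bulk tissue, fewer cells of a type and less RNA per cell cannot be told apart.

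All 10 genes reached a TPM of 1 or more in both pups, here called detected, against 63.8% of all protein-coding genes. TPM corrects counts for transcript length, so levels of different genes in TPM can be set side by side. The midline ephrin Efnb3 had by far the highest TPM, near 115 on average, and Epha3 the lowest of the 10. Among the receptors of the 10, Epha5 had the highest mean TPM with all its transcripts counted (39.2). On transcripts annotated as protein-coding alone it had 17.8, below Efna5 (30.4) and Ephb1 (25.7). The median of the 10 mean TPM values was 22.4, against 17.7 over detected protein-coding genes, and 6 of the 10 lay above that value. On protein-coding transcripts alone, the median of the 10 was 14.0 against 15.3 over detected protein-coding genes, and 5 of the 10 lay above. With all transcripts counted, mean TPM ran from high to low Efnb3, Epha5, Efna5, Ephb1, Epha4, Epha7, Ephb2, Ephb3, Efnb2, Epha3. Of the 9 neighbouring pairs in this order, 5 were apart in both pups by the deposited TPM intervals and by their ranges over the pups: Efnb3 and Epha5, Epha5 and Efna5, Efna5 and Ephb1, Epha7 and Ephb2, and Efnb2 and Epha3. The order of Epha5 and Efna5 is the reverse on protein-coding transcripts alone, as the values above show. Neighbours among Ephb1, Epha4 and Epha7 were not apart, although Ephb1 and Epha7 themselves were apart by the same rule. Neighbours among Ephb2, Ephb3 and Efnb2 were not apart either, and Ephb2 and Ephb3 changed places between the pups. With 2 samples no likeness of pattern between genes can be measured, so no genes of similar pattern are named.

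**Figure D1:**
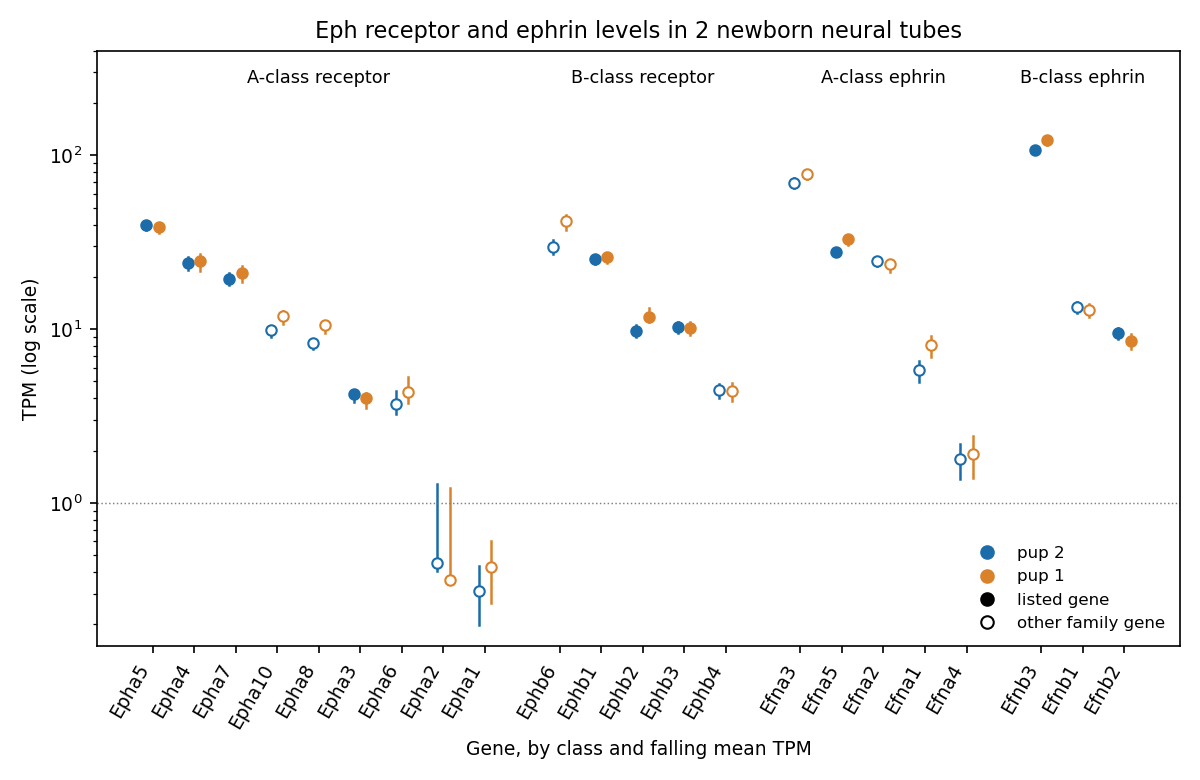
TPM (log axis) of the 22 Eph receptor and ephrin genes by class in pup 2 (blue, left) and pup 1 (orange, right), with filled points for the 10 genes described here, open points for the 12 others, vertical lines for the deposited intervals and a dotted line at a TPM of 1. Efnb3 stands highest at 108 in pup 2 and 122 in pup 1, and 20 of the 22 genes lie above the line in both pups.

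The 7 receptors share the catalytic loop of the kinase, a run of 8 residues that begins with His, Arg and the catalytic Asp. It was found by translating the GENCODE M21 coding sequences on GRCm38, and it also served below to tell transcripts that encode the kinase from those that do not. The 24 bases that encode it are shown for each receptor, 5′ to 3′ on the strand of the gene, with the codons of His, Arg and Asp in capitals.
Epha3: CACCGGGACcttgctgctcgcaac
Epha4: CATCGAGACctggctgccaggaac
Epha5: CATAGAGACcttgctgctagaaac
Epha7: CACAGGGACcttgcagcgcgcaac
Ephb1: CACCGGGACctggctgctagaaac
Ephb2: CACCGTGACcttgctgctcgaaac
Ephb3: CACCGTGACcttgctgcccgaaac
These stretches lie at chr16:63583481-63583504 (minus strand) for Epha3, chr1:77382962-77382985 (minus) for Epha4, chr5:84084799-84084822 (minus) for Epha5, chr4:28950452-28950475 (plus) for Epha7, chr9:101964031-101964054 (minus) for Ephb1, chr4:136659662-136659685 (minus) for Ephb2 and chr16:21221378-21221401 (plus) for Ephb3. All 7 encode the same residues in different codons. Against Epha3, the stretch differs at 2 bases in Ephb2, 3 bases in Epha7, Ephb1 and Ephb3, 5 bases in Epha5 and 6 bases in Epha4. The loop was found in 12 of the 14 Eph receptor genes, the exceptions being Epha10 and Ephb6, which are known to lack kinase activity. It was found in 59 of 21866 protein-coding genes (0.27%).

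The 4 A-class receptors spanned a wide range of levels, with Epha5 high and Epha3 low, and none of the 4 had pup intervals that were apart. Their summed TPM was 87.6 in pup 2 and 88.5 in pup 1. Epha5 (chr5:84054761-84417382, minus strand), a receptor of ephrin-A ligands in topographic maps, had a TPM of 39.7 in pup 2 and 38.7 in pup 1 (mean 39.2 ± 0.707, SD, n = 2), from 3608 and 2305 expected counts. It supplied 29.9% of the summed TPM of the 7 receptors in pup 2 and 28.3% in pup 1, and 70.7% of detected protein-coding genes had a lower mean TPM. Epha4 (chr1:77367185-77515088, minus strand), which binds ephrins of both classes and whose loss gives mice a hopping gait, had a TPM of 24.2 in pup 2 and 24.6 in pup 1 (mean 24.4 ± 0.339, SD, n = 2), from 2761 and 1810 expected counts. These values lay closer together than the width of either deposited interval, 22.0 to 26.1 in pup 2 and 21.65 to 27.03 in pup 1.

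Epha7 (chr4:28813131-28967499, plus strand), a receptor of ephrin-A5 with a known short form, had a TPM of 19.5 in pup 2 and 21.2 in pup 1 (mean 20.3 ± 1.16, SD, n = 2), from 1821 and 1176 expected counts. The pup intervals overlapped, from 18.0 to 21.2 in pup 2 and from 18.7 to 23.2 in pup 1. Epha3 (chr16:63543534-63864175, minus strand), which marks motor neurons that supply the axial muscles, was the lowest of the 10, with a TPM of 4.21 in pup 2 and 4.00 in pup 1 (mean 4.11 ± 0.148, SD, n = 2), from 622 and 384 expected counts. Of detected protein-coding genes, 16.5% had a lower mean TPM than Epha3. The TPM of Efnb3 was 25.6 times that of Epha3 in pup 2 and 30.5 times in pup 1.

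Among the B-class receptors, Ephb1 stood above Ephb2 and Ephb3, and Ephb2 was the 1 receptor with pup intervals apart. Their summed TPM was 45.1 in pup 2 and 48.0 in pup 1. Ephb1 (chr9:101922128-102354693, minus strand), which guides limb motor axons and retinal axons by ephrin-B ligands, had a TPM of 25.2 in pup 2 and 26.1 in pup 1 (mean 25.7 ± 0.679, SD, n = 2). Its intervals overlapped, from 23.7 to 25.6 in pup 2 and from 24.2 to 26.5 in pup 1. The 2910 and 1964 expected counts of Ephb1 were not whole numbers (to 2 decimals), although 9 of the 10 genes had whole expected counts in both pups, against 73.3% of protein-coding genes that averaged 100 counts or more. The long noncoding RNA gene Gm26846 lies on the opposite strand within Ephb1. It had 42.1 expected counts in pup 2 and 59.1 in pup 1, and the pair summed to the whole numbers 2952 and 2023. The strand setting of the counting is not given in the sources used here, so reads of the pair cannot be told apart with certainty.

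Ephb2 (chr4:136647539-136835988, minus strand), which binds ephrin-B ligands as well as ephrin-A5 and is known at excitatory synapses, had a TPM of 9.73 in pup 2 and 11.8 in pup 1 (mean 10.7 ± 1.44, SD, n = 2), from 1334 and 1050 expected counts. Its TPM was lower in pup 2 and its intervals did not overlap, from 8.95 to 10.6 in pup 2 and from 11.0 to 13.3 in pup 1. Ephb3 (chr16:21204755-21223305, plus strand), which acts with Ephb2 where forebrain axons cross, had a TPM of 10.2 in pup 2 and 10.1 in pup 1 (mean 10.2 ± 0.0919, SD, n = 2), from 1091 and 706 expected counts. By TPM, Ephb3 was the steadiest of the 10, with an SD of 0.905% of its mean, and Ephb2 was the most variable, with an SD of 13.4%. By counts scaled to library size, however, the log2 ratio between the pups was smaller for Ephb1 (0.0128) and Epha4 (0.0547) than for Ephb3 (0.0733). The median SD over the 10 genes was 4.66% of the mean, against 6.26% over all genes with 100 or more counts on average.

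The 3 ephrins differ in how they end, and these ends set how they are held in the membrane and whether they can signal back. The last 27 coding bases of each are shown, 5′ to 3′ on the strand of the gene, with the last 4 codons in capitals.
Efna5: ttcctcctggcgatgCTTTTGACATTA
Efnb2: agtcctgccaacattTACTACAAGGTC
Efnb3: agccctccgaacatcTATTACAAGGTA
They lie at chr17:62607345-62607371 for Efna5, chr8:8620591-8620617 for Efnb2 and chr11:69555863-69555889 for Efnb3, all on the minus strand of GRCm38. The last 4 codons of Efnb2 and Efnb3 encode the same residues, known as the motif by which B-class ephrins bind PDZ proteins such as Grip1 and Pick1. Efna5 ends instead in a hydrophobic stretch, which belongs to the signal that is removed when the glycolipid anchor is attached. Over the last 99 coding bases, Efnb2 and Efnb3 had 84 bases in common, and 30 of 33 residues. Efna5 had 31 bases in common with Efnb2 and 32 with Efnb3, and 0 residues with either.

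Efnb3 led the ephrins by a wide margin, and Efnb3 and Efna5 were both lower in pup 2 with intervals apart. Efnb3 (chr11:69554092-69560205, minus strand) is the midline barrier that keeps Epha4-bearing axons from crossing. It had a TPM of 107.97 in pup 2 and 122.13 in pup 1 (SD 10.0, n = 2), from 8848 and 6497 expected counts. It supplied 74.4% of the summed TPM of the 3 ephrins in pup 2 and 74.6% in pup 1, and 89.6% of detected protein-coding genes had a lower mean TPM. Its deposited intervals were 103.5 to 107.94 in pup 2 and 115.3 to 121.0 in pup 1, and in each pup the TPM itself lay above its own interval, which held for 1 of the 10 genes. Efnb3 is known in the floor plate and in myelinating cells as well as in neurons. The floor and roof plate list had 2 of 6 markers detected and a summed TPM of 65.6 in pup 2 and 69.3 in pup 1 (Spon1 the highest, Wnt1 the lowest, none at 0). The oligodendrocyte lineage sum was higher in pup 2, as given above. The part of these cells in the Efnb3 level was not tested.

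Efna5 (chr17:62604184-62881317, minus strand), a glycolipid-anchored ligand of A-class receptors that also binds Ephb2, had a TPM of 27.7 in pup 2 and 33.0 in pup 1 (mean 30.4 ± 3.71, SD, n = 2), from 2890 and 2196 expected counts. Its intervals did not overlap, from 26.2 to 28.2 in pup 2 and from 30.6 to 33.5 in pup 1. Efnb2 (chr8:8617434-8661242, minus strand), an ephrin of limb and retinal targets that also marks arterial endothelium, had a TPM of 9.48 in pup 2 and 8.60 in pup 1 (mean 9.04 ± 0.622, SD, n = 2), from 1037 and 612 expected counts, and its intervals overlapped. Beside it, 5 of 6 arterial and venous markers were detected, with a summed TPM of 92.6 in pup 2 and 92.8 in pup 1 (Nr2f2 the highest, Gja5 the lowest, none at 0). All 6 general endothelial markers were detected, with a summed TPM of 166 in pup 2 and 201 in pup 1 (Cldn5 the highest, Tek the lowest, none at 0). How much of the Efnb2 RNA came from vessels was not tested.

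Summed by role, the 3 ephrins had more TPM than the 7 receptors in both pups. The receptors summed to 133 in pup 2 and 136 in pup 1 and the ephrins to 145 in pup 2 and 164 in pup 1, so the ratio of receptors to ephrins was 0.914 in pup 2 and 0.834 in pup 1 (mean 0.874 ± 0.0569, SD, n = 2). Without division by length, as CPM, the same ratio averaged 1.06, above 1, so the order of the sums rests on the correction for length. B-class receptors summed to 0.515 of the A-class sum in pup 2 and 0.542 in pup 1 (mean 0.529 ± 0.0191, SD, n = 2), and with TPM on protein-coding transcripts alone this ratio was 0.885. B-class ephrins exceeded the single A-class ephrin of the list 4.24-fold in pup 2 and 3.96-fold in pup 1 (mean 4.10 ± 0.192, SD, n = 2). Over all 8 ephrin genes this ratio was 1.01 in pup 2 and 0.995 in pup 1, with Efna3 alone at a TPM of 69.5 in pup 2 and 77.7 in pup 1.

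The 12 family genes outside the list include 7 receptors and 5 ephrins, and 10 of them were detected in both pups. The listed receptors held 70.0% of the TPM of all 14 Eph receptors in pup 2 and 64.8% in pup 1, and the listed ephrins held 55.7% of that of all 8 ephrins in pup 2 and 56.8% in pup 1. The highest other receptor was the kinase-dead Ephb6, with a TPM of 29.7 in pup 2 and 42.0 in pup 1 (mean 35.9 ± 8.68, SD, n = 2). That was below Epha5 in pup 2 (39.7) and above it in pup 1 (38.7). Ephb6-203, a fragment of 459 bases with an incomplete coding sequence, took 25.8% of Ephb6 TPM in pup 2 and 32.1% in pup 1. This fragment rested on 73 expected counts in pup 2 and 84 in pup 1. The full Ephb6-201 had a TPM of 21.8 in pup 2 and 27.5 in pup 1. Epha10, the other receptor without the loop, had 9.84 in pup 2 and 11.96 in pup 1, and Epha8 had 8.33 in pup 2 and 10.5 in pup 1. Ephb4, known in veins, had 4.47 in pup 2 and 4.38 in pup 1, and Epha6 had 3.71 in pup 2 and 4.32 in pup 1. Epha2 (0.45 in pup 2, 0.36 in pup 1) and Epha1 (0.31 in pup 2, 0.43 in pup 1), both known mainly from epithelia, were below the detection level. Among the ephrins, Efna2 had a TPM of 24.8 in pup 2 and 23.7 in pup 1, Efnb1 13.4 in pup 2 and 13.0 in pup 1, Efna1 5.79 in pup 2 and 8.12 in pup 1, and Efna4 1.80 in pup 2 and 1.92 in pup 1. Of the 9 other genes that averaged 100 counts or more, 4 (Epha8, Epha10, Ephb6 and Efna1) were lower in pup 2 with intervals apart, against 15.9% of all genes at that count, and 0 were higher, against 7.72%.

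Between the pups the 10 genes differed little. The log2 ratio of counts scaled to library size with TMM factors, pup 2 minus pup 1, ran from -0.21 for Ephb2 to 0.21 for Efnb2, and 0 of the 10 genes were 2-fold apart. Among the 13545 genes with a mean count of 100 or more, 64 were at least 2-fold apart (the 0.472% given above), 56 higher and 8 lower in pup 2. The deposited TPM intervals of the pups were apart for 3 of the 10 genes, Ephb2, Efna5 and Efnb3, all lower in pup 2. Over all genes at that count they were apart for 23.6%, and apart and lower in pup 2 for 15.9%. The 3 of 10 genes are close to the share for either direction, and their common direction is given as a description. The median log2 ratio of the list was 0.06, and that of all genes was 0.00 to 2 decimals.

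The ratios carried counting errors of their own, given as 95% intervals from the 2 counts alone. The interval lay below 0 for Ephb2 (-0.33 to -0.09), Efna5 (-0.24 to -0.08) and Efnb3 (-0.16 to -0.06), and above 0 for Efnb2 (0.06 to 0.35) and Epha5 (0.02 to 0.17). For Epha3, Epha4, Epha7, Ephb1 and Ephb3 it held 0. By counts with TMM factors 3 genes were lower in pup 2 and 7 higher, by TPM 6 were lower, and with spike-in totals in place of TMM factors all 10 were lower, since that scaling shifted the median log2 ratio of all genes to -0.29. The spike-in totals rest on 603 counts in pup 2 and 335 in pup 1. Epha4, Epha7 and Ephb1 were the genes that were lower in pup 2 by TPM and higher by counts. The median log2 ratio of TPM itself was -0.06 over all genes and -0.04 over the 10. The pan-neuronal sum was also lower in pup 2. With intervals apart, 4 of 6 markers were lower and 1 higher, against 15.9% and 7.72% of all genes that averaged 100 counts or more. The motor neuron sum (6 of 6 detected, Prph the highest, Mnx1 the lowest) was 208 in pup 2 and 173 in pup 1. The dorsal horn sum (6 of 6 detected, Tac1 the highest, Lmx1b the lowest) was 303 in pup 2 and 271 in pup 1. Both sums were higher in pup 2, but most of each gap lay in a single gene. These were Prph (126 in pup 2, 94.8 in pup 1) and Tac1 (238 in pup 2, 208 in pup 1). Chat, Ret, Lmx1b, Pax2 and Gbx1 had a lower TPM in pup 2, and the remaining markers of both lists a higher one. The part of cell makeup in the 3 lower genes was not tested.

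**Figure D2:**
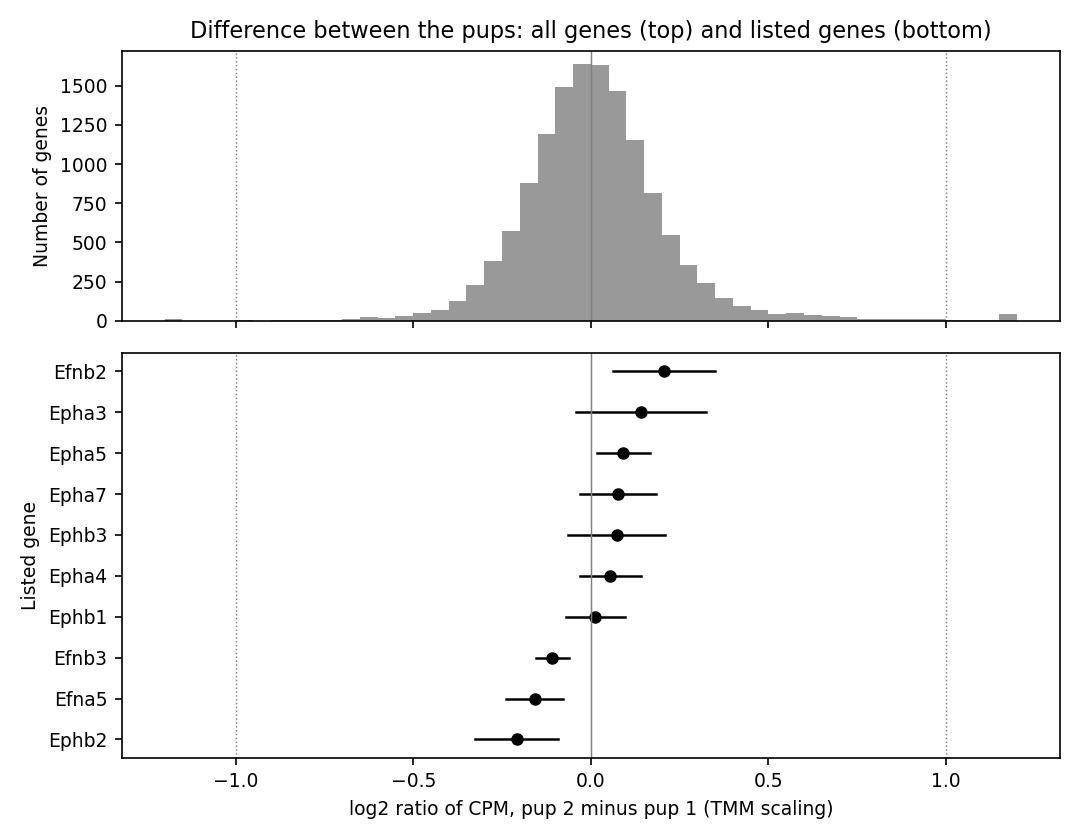
Log2 ratio of CPM with TMM factors, pup 2 minus pup 1, as a histogram over all 13545 genes that averaged 100 counts or more (top, values beyond the axis gathered in the end bins) and for each of the 10 genes with its 95% counting interval (bottom). Dotted lines mark 2-fold; the 10 genes lie between -0.21 (Ephb2) and 0.21 (Efnb2), within the bulk of the histogram.

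The transcript tables give the percent of a gene's TPM that each annotated transcript takes (IsoPct). The 10 genes have 44 transcripts, of which 33 had a TPM above 0 in both pups. Epha3 and Efnb3 have 1 transcript each, and the other 8 genes had the same top transcript in both pups, 8 of 8, against 91.8% of genes with more than 1 transcript whose mean TPM was 5 or higher. The top transcript of Epha5 is annotated as a retained intron in both pups, 1 of the 8, against 3.09% of protein-coding genes of that kind. Of 22 transcripts that averaged 100 counts or more, the pup intervals were apart for 3 (Ephb2-204, Efna5-201 and Efnb3-201), against 16.7% of all such transcripts, and all 3 were lower in pup 2. Short transcripts gain TPM for a given count, so shares of TPM and shares of counts are given side by side where they differ.

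Epha7 is known to make a short receptor that keeps the ephrin-binding part and the membrane span and lacks the kinase, and that short form was the top Epha7 transcript in both pups. The short Epha7-202 and the full Epha7-201 share their first 599 codons and then leave for different exons. The junction is shown as spliced RNA written as DNA, with the last 15 shared bases in lower case and the first 15 of each own exon in capitals.
Epha7-202: aactctactttcattCTTTAGTAACAAATG
Epha7-201: aactctactttcattTTAAATTTCCAGGCA
On the plus strand of chromosome 4 in GRCm38, the last shared base is 28943378, and the own sequence starts at 28946219 in Epha7-202 and at 28947528 in Epha7-201. Epha7-202 reads on for 32 coding bases of its own and ends at 610 codons, whereas Epha7-201 has 998 codons with the catalytic loop from codon 756. Epha7-202 took 38.2% of Epha7 TPM in pup 2 and 30.4% in pup 1, and Epha7-201 took 20.6% in pup 2 and 23.4% in pup 1. In TPM, the short form had 7.46 in pup 2 (interval 6.30 to 8.02) and 6.43 in pup 1 (5.19 to 7.17), and the full form had 4.03 in pup 2 (2.99 to 4.63) and 4.94 in pup 1 (3.91 to 5.27). The intervals of the short and the full form were apart in pup 2 and overlapped slightly in pup 1. The other kinase form, Epha7-203, lacks 12 coding bases right after the shared codons and took 5.48% in pup 2 and 1.28% in pup 1. The short form had 1.46 times the TPM of both kinase forms together in pup 2 and 1.23 times in pup 1. As a share of counts, however, it took 30.3% in pup 2 and 26.2% in pup 1, against 49.2% in pup 2 and 50.8% in pup 1 for the kinase forms, because the kinase forms are the longer RNAs.

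The rest of Epha7 fell to transcripts annotated as processed, with no coding sequence. Epha7-208 took 20.4% in pup 2 and 19.3% in pup 1. Epha7-206, of 648 bases, took 6.93% in pup 2 and 21.3% in pup 1, but rested on 19.7 expected counts in pup 2 and 42.7 in pup 1, and its intervals overlapped. These 2 transcripts account for most of the 35.7% in pup 2 and 45.0% in pup 1 that processed transcripts took of Epha7 TPM.

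**Figure D3:**
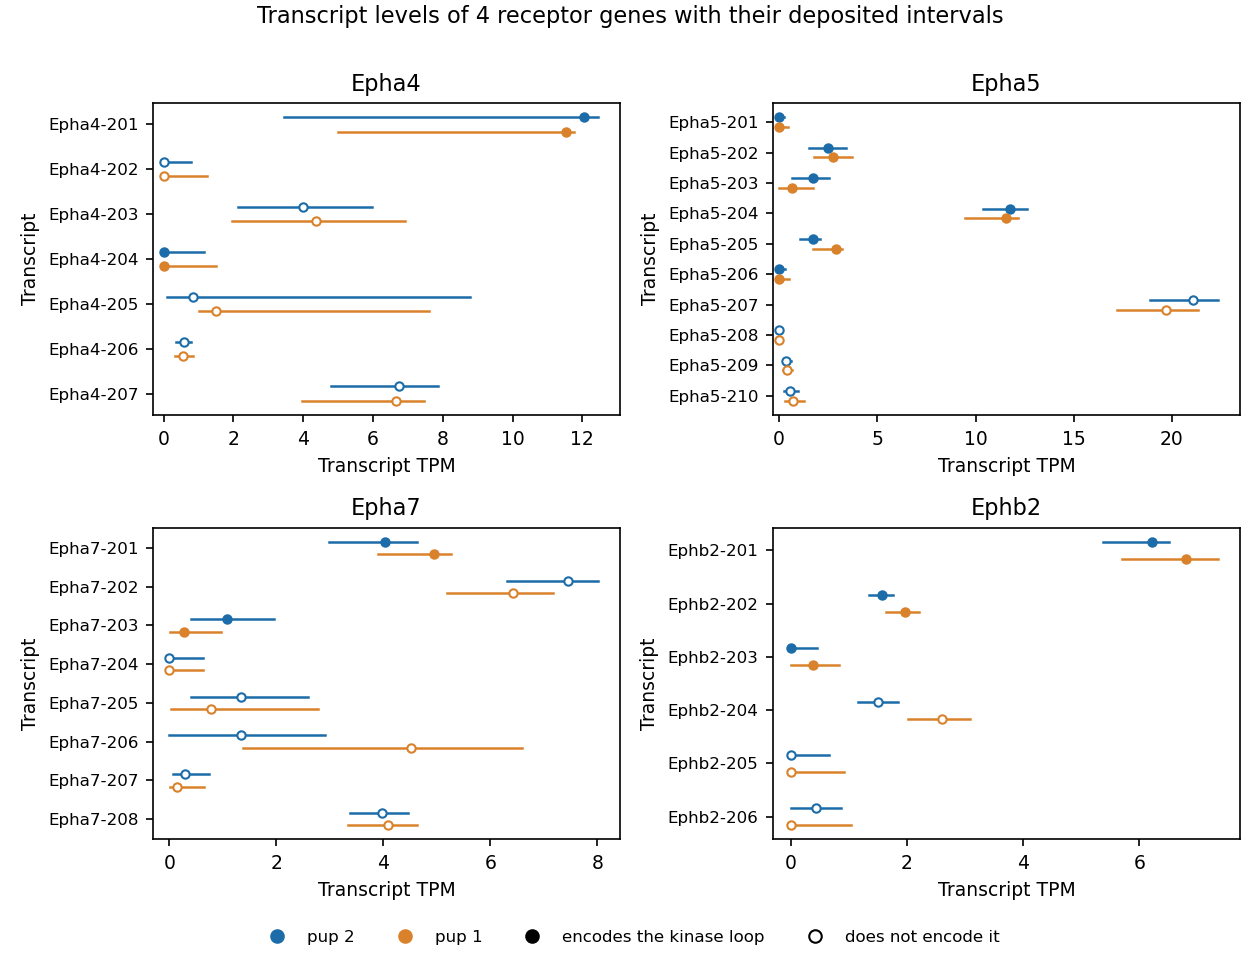
Transcript TPM (linear axes, 1 panel per gene) of Epha4, Epha5, Epha7 and Ephb2 in pup 2 (blue, upper) and pup 1 (orange, lower), with filled points for transcripts that encode the kinase loop, open points for those that do not, and lines for the deposited intervals. The open Epha7-202 (7.46 in pup 2, 6.43 in pup 1) lies to the right of the filled Epha7-201, and the open Epha5-207 has the highest TPM of the Epha5 transcripts.

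Epha5 was led by Epha5-207, which took 53.1% of its TPM in pup 2 and 51.0% in pup 1. This transcript of 2246 bases in 3 exons is annotated as a retained intron and covers the start of the gene (chr5:84330775-84417382). Of its bases, 1217 lie in exons of the longest coding form Epha5-205, 453 in introns of that form and 576 outside it. It held 33.3% of Epha5 counts in pup 2 and 31.7% in pup 1, a smaller share than of TPM. The top coding transcript was Epha5-204, with 29.6% of TPM in pup 2 and 29.8% in pup 1. It has 819 codons and lacks 664 coding bases of the 1040 codons of Epha5-205, but keeps the kinase loop. Epha5-205 itself took 4.39% in pup 2 and 7.53% in pup 1.

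For Epha4, the full-length Epha4-201 of 986 codons led with 49.8% of TPM in pup 2 and 46.8% in pup 1. Epha4-207, annotated for nonsense-mediated decay, took 27.91% in pup 2 and 26.99% in pup 1. Epha4-203, a fragment of 614 bases with an incomplete coding sequence, took 16.5% in pup 2 and 17.8% in pup 1, on 54.4 and 38.9 expected counts. The level of Epha4-201 was poorly fixed, with a TPM interval of 3.45 to 12.4 in pup 2 and 4.98 to 11.8 in pup 1. The decay transcript Epha4-205 is nearly the same length, 6315 against 6328 bases, and the posterior mean estimates gave it 21.6% in pup 2 and 17.2% in pup 1, where the main estimates gave 3.42% in pup 2 and 6.13% in pup 1. By the same posterior means Epha4-201 took 30.7% in pup 2 and 34.6% in pup 1.

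The B-class receptors were simpler. Ephb1-201 took 65.3% of Ephb1 TPM in pup 2 and 68.2% in pup 1, and Ephb1-202, which lacks 123 coding bases of the 984 codons and keeps the loop, took 31.0% in pup 2 and 26.5% in pup 1. Ephb1-203, of 456 codons without the loop, took 3.70% in pup 2 and 5.31% in pup 1. Ephb2-201 led Ephb2 with 63.8% in pup 2 and 57.8% in pup 1, and Ephb2-202, which is 1 codon shorter, took 16.2% in pup 2 and 16.7% in pup 1. The retained intron Ephb2-204 took 15.6% in pup 2 and 22.2% in pup 1. Its TPM was 1.51 in pup 2 (interval 1.16 to 1.84) and 2.61 in pup 1 (2.02 to 3.09), lower in pup 2 with intervals apart, on 97.3 and 109 expected counts. Ephb3 and the ephrins with several transcripts each rested nearly on a single form: Ephb3-201 took 97.8% in pup 2 and 94.7% in pup 1, Efna5-201 took 99.7% in pup 2 and 97.9% in pup 1, and Efnb2-201 took 97.1% in pup 2 and 97.3% in pup 1.

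Across the 7 receptors, transcripts that encode the kinase loop held 61.1% of receptor TPM in pup 2 and 60.2% in pup 1 (mean 60.6% ± 0.641, SD, n = 2). The rest was spread over coding transcripts without the loop (9.65% in pup 2, 8.94% in pup 1), retained introns (18.3% in pup 2, 17.9% in pup 1), processed transcripts (5.24% in pup 2, 6.98% in pup 1) and decay transcripts (5.70% in pup 2, 5.98% in pup 1). With all transcripts counted, the loop share was over 77% for the B-class receptors and under 50% for Epha4, Epha5 and Epha7. Epha3 has 1 annotated transcript, which encodes the loop, so its 100% in both pups was fixed by the annotation. On protein-coding transcripts alone the loop share averaged 73.8% for Epha4 and 42.7% for Epha7. For Epha5 it was 100%, which was also fixed, since all 6 of its coding transcripts encode the loop. The Epha4 value differs in kind from that of Epha7. All Epha4 TPM on coding transcripts without the loop fell to the incomplete fragment Epha4-203, whose annotated bases all lie downstream of the loop. That fragment, which cannot show whether its RNA encodes the kinase, is also part of the class of coding transcripts without the loop. With all transcripts counted, the loop share was 97.9% in pup 2 and 95.5% in pup 1 for Ephb3. Ephb1 had 96.3% in pup 2 and 94.7% in pup 1, and Ephb2 had 80.0% in pup 2 and 77.8% in pup 1. Epha4 had 49.8% in pup 2 and 46.8% in pup 1, Epha5 44.6% in pup 2 and 46.1% in pup 1, and Epha7 26.1% in pup 2 and 24.6% in pup 1. Weighted by counts, the share over the 7 receptors was 77.7% in pup 2 and 77.1% in pup 1, with Epha4 at 72.2% in pup 2 and 68.5% in pup 1 and Epha5 at 64.7% in pup 2 and 65.9% in pup 1. These shares follow the annotation and say nothing of protein.

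**Figure D4:**
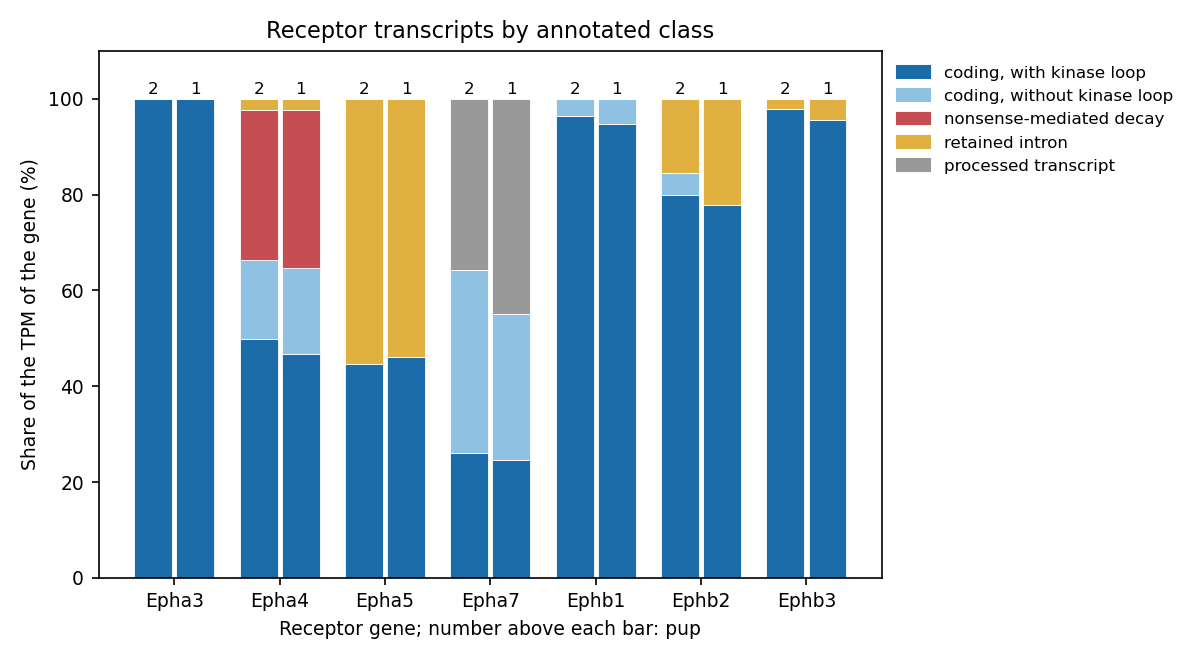
Share of each receptor gene's TPM (percent, bars from 0) by annotated transcript class, with pup 2 left and pup 1 right in each pair. Coding transcripts with the kinase loop (dark blue) fill over 77% of the B-class receptors with all transcripts counted. They fill under 50% of Epha4, Epha5 and Epha7 and all of Epha3, which has 1 annotated transcript.

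The pathway around the family was represented by a list of 42 genes of Eph and ephrin signalling. They are shedding proteases, Src and Abl kinases, adaptors, exchange factors and GTPase regulators, PDZ partners, phosphatases, and small GTPases with their effectors. All 42 were detected in both pups, against 63.8% of all protein-coding genes. Their median TPM was 20.8, against 17.7 over detected protein-coding genes. The 6 highest were Cfl1 (cofilin, which severs actin), with 1953 in pup 2 and 2173 in pup 1, the GTPases Cdc42 (785 in pup 2, 794 in pup 1), Rac1 (272 in pup 2, 271 in pup 1) and Rhoa (211 in pup 2, 205 in pup 1), the adaptor Grb2 (129 in pup 2, 119 in pup 1) and the Src family kinase Fyn (112 in pup 2, 87.9 in pup 1). The 3 lowest were the phosphatase Ptpn13 (1.72 in pup 2, 1.69 in pup 1), the kinase Abl2 (4.14 in pup 2, 5.10 in pup 1) and Sipa1l1 (5.33 in pup 2, 6.22 in pup 1), a GTPase-activating protein that binds Epha4.

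None of the 42 was 2-fold apart between the pups, against 0.472% of all genes that averaged 100 counts or more. The median log2 ratio of the 42 was -0.01. The pup intervals were apart and lower in pup 2 for 7 of the 42, against the 15.9% given above, and apart and higher in pup 2 for 3, Mmp9, Fyn and Rock2, against 7.72% of all genes. Mmp9, a secreted protease, had a TPM of 12.1 in pup 2 and 7.59 in pup 1 (log2 ratio 0.63), and with spike-in totals its ratio was 0.34. Fyn had a log2 ratio of 0.30 with TMM factors and 0.00 with spike-in totals, and Rock2 had 0.24 with TMM factors and -0.06 with spike-in totals. Some proteins of the list are known to bind the B-class ephrin tail, and not all of these are named here. Of these, Grip1 (15.4 in pup 2, 17.0 in pup 1) and Pick1 (56.5 in pup 2, 68.5 in pup 1) were among the 7 lower genes. The intervals overlapped for Grip2 (6.03 in pup 2, 6.86 in pup 1), Rgs3 (27.6 in pup 2, 28.9 in pup 1) and Ptpn13, given above.

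**Figure D5:**
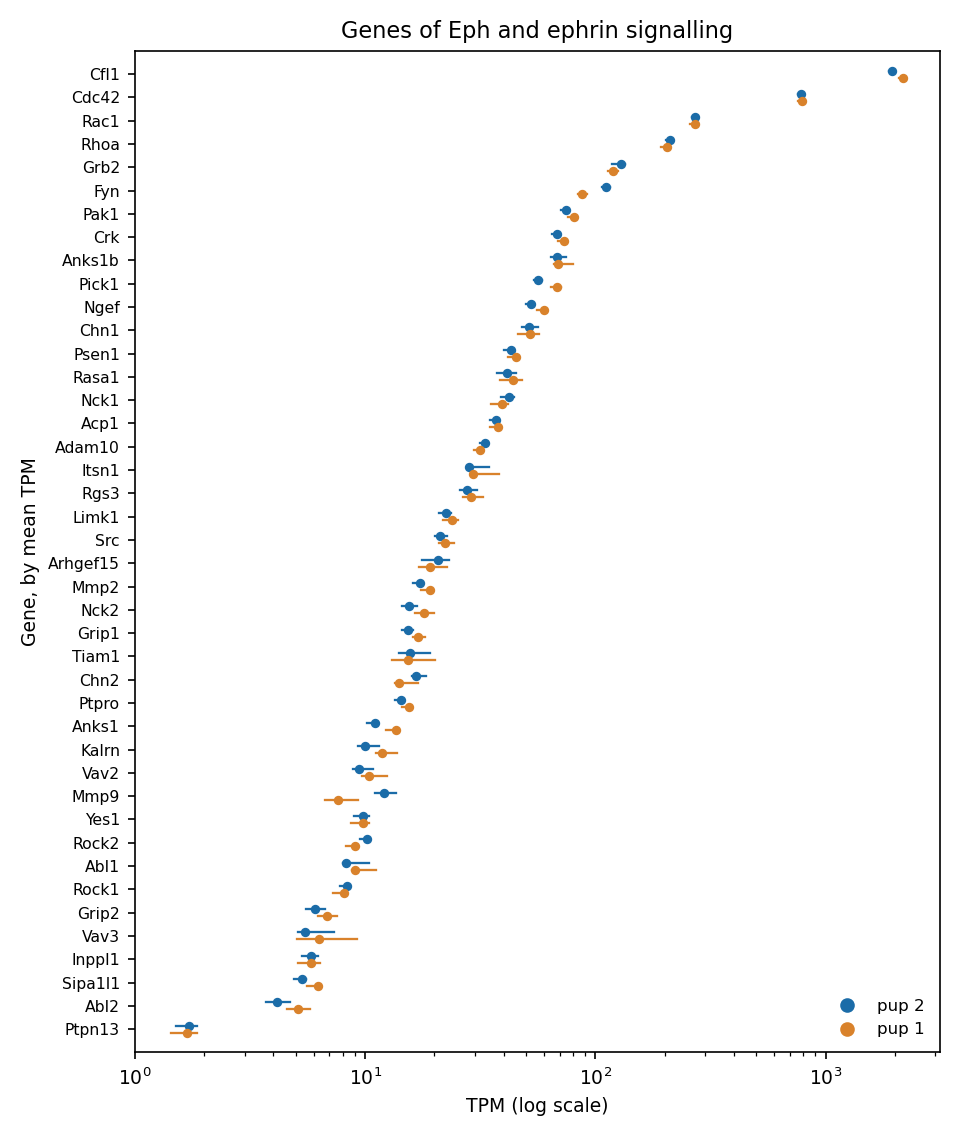
TPM (log axis) of the 42 signalling genes in pup 2 (blue) and pup 1 (orange) in order of mean TPM, with the deposited intervals as lines. They span from Ptpn13 (1.72 in pup 2, 1.69 in pup 1) to Cfl1 (1953 in pup 2, 2173 in pup 1), and Mmp9 shows the widest gap between the pups.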

How the data were processed

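No p-value was computed, since the labels give 1 group of 2 pups. The deposited gene and transcript tables hold, per the file headers, expected counts (estimates that can be fractional), TPM, posterior means, TPM interval bounds, lengths and, for transcripts, the percent of gene TPM. The column names are those RSEM writes, and the deposited notes name mm10 and GENCODE M4. The aligner, the RSEM version, the strand setting and the level of the intervals were not given in the sources used here. GENCODE M21, also on the GRCm38 (mm10) build, supplied symbols, biotypes, coding sequences and coordinates, matched on ID without version, and 41 of the 44 transcripts of the list have the same length in both releases. Symbols matched 42462 of 43346 gene rows.

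Rounded expected counts were used. TMM factors came from edgeR 4.0.16 in R 4.3.3 over the 18105 genes averaging 10 counts or more, and log2 ratios of CPM used a prior count of 2. DESeq2 1.42.0 gave alternative size factors, and posterior means, CPM, protein-coding transcripts alone, other filters and each pup alone were the other alternatives. Genes were called 2-fold apart, or intervals apart, only where the mean count reached 100. The log2 steps were tested on simulated data. A count of 0 allows up to 3 counts, 0.075 CPM in pup 2 and 0.111 CPM in pup 1, and such limits and the 95% intervals cover counting error only. Tables, sequences and figures were handled in Python 3.11.15 with biopython 1.88, matplotlib 3.10.9, numpy 2.4.6 and pandas 2.3.3.

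The members and lists (42 signalling genes and 19 marker lists with 117 genes) were chosen with earlier results of these data known. Named were all family genes, the 6 highest and 3 lowest signalling genes, any at least 2-fold apart, transcripts with at least 10% of their gene's TPM, and the highest and lowest marker of a list set beside a result. Mmp9, Rock2, Grip1, Grip2, Pick1, Rgs3, the exceptions among the marker and Hox genes, and transcripts under 10% that help to place a form were named after their values were seen.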

Additional observations from a re-analysis of the deposited data

How the results depend on the processing

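The ratio of receptor to ephrin TPM was 0.611 on protein-coding transcripts alone, 1.06 as CPM and 0.729 over the whole family, against 0.874, and 0.834 to 0.914 by single pup. The ratio of B-class to A-class receptors was 0.885, 0.630 and 0.767 under the same 3 settings, against 0.529, and 0.515 to 0.542 by single pup. The ratio of B-class to A-class ephrins was 3.33 as CPM and 1.00 over the whole family, against 4.10, and 3.96 to 4.24 by single pup. The median TPM of the 10 genes was 14.0 on protein-coding transcripts alone and 56.4 as CPM, against 22.4, and 21.8 to 22.9 by single pup. The loop share of receptor TPM was 57.3% by posterior means, 86.7% on protein-coding transcripts alone, 77.4% by expected counts and 64.8% on transcripts of at least 1000 bases, against 60.6%, and 60.2% to 61.1% by single pup. Weighting by expected counts, the length limit and the all-gene median on protein-coding transcripts were chosen after seeing the data. Genes at least 2-fold apart numbered 1987 with no filter on counts, 433 when a mean count of 10 sufficed and 272 at 1.5-fold, against 64. The median log2 ratio of the list was -0.23 with spike-in totals, against 0.06. At a TPM of at least 5, 9 of the 10 genes were detected. In all, 18 summary values moved and 34 did not, and 42 other values moved and 91 did not. Some orders and signs turned: the receptor to ephrin ratio passed 1 as CPM, 7 of the 10 log2 ratios, above 0 with TMM factors, were below 0 with spike-in totals, and Epha5 had a lower TPM than Efna5 and Ephb1 on protein-coding transcripts alone. CPM and family-wide settings differ by construction, and the cause of the other shifts was not tested. Of the 10 genes, Epha3 had the fewest counts. No paired analysis was possible because the 2 pups form 1 group with nothing to pair.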
